A study of Mus musculus with 14 samples.

Results

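The genes described here are those of the respiratory chain and ATP synthase: 110 of the 49584 genes of the table, of which 97 lie in the nuclear genome and 13 in mitochondrial DNA (mtDNA). They were chosen by symbol (Nduf, Sdh, Uqcr, Cox4 to Cox8 and Atp5 for nuclear genes, mt-Nd, mt-Co, mt-Cytb and mt-Atp for genes of mtDNA). Left out were 7 entries whose names contain -ps. The symbols also take in 14 assembly or other factors, which were counted apart from the subunits. Ndufa4 and Ndufa4l2 were counted with complex IV.

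RNA-seq was run on 14 kidney libraries of mice with an unaltered Ripk4 gene (WT) and mice with a conditional knockout of it (cKO). Ripk4 encodes a receptor-interacting protein kinase. The WT untreated (n = 3) and cKO untreated (n = 3) groups had no drug. The WT cisplatin (n = 4) and cKO cisplatin (n = 4) groups had 15 mg per kg of cisplatin, a platinum drug known for its toxicity to kidney tubules, injected into the abdomen 4 days before the kidneys were taken. The Cre line, the cells in which it acts, sex, age and batch are not given by the labels. Nor do the labels state that the libraries of a group came from separate mice, so p-values measure the spread between these libraries.

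The respiratory chain passes electrons from NADH and succinate to oxygen and pumps protons across the inner mitochondrial membrane, and ATP synthase (complex V) uses the proton gradient to make ATP. Complexes I, III, IV and V mix subunits of both genomes, whereas all subunits of complex II are nuclear. The nuclear genes counted as core here are the cofactor-bearing or catalytic core of complex I, all of complex II, the core proteins and the Rieske protein of complex III and the F1 head of complex V. The other subunits, mostly small, were counted as accessory. Tubule cells, above all those of the proximal tubule and the thick ascending limb, are rich in mitochondria because reabsorption uses much ATP.

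Each library held 36.7 to 77.0 M reads assigned to genes. Ripk4 read 7.18 to 8.51 FPKM (fragments per kilobase of gene and per M assigned reads) in WT untreated and 3.68 to 4.61 in cKO untreated kidneys, so its RNA was lower in the cKO but not absent. After cisplatin it read 7.61 to 13.3 FPKM in WT and 3.61 to 9.09 in cKO kidneys, which overlap. Havcr1, a gene of injured tubules, read 5.38 FPKM in cKO cisplatin replicate 4, 35.2 to 70.8 in the other cKO cisplatin kidneys and 369.8 to 1116 in the WT cisplatin kidneys. The summed level of 8 tubular injury genes in that replicate lay within the cKO untreated range, and it enters every comparison with drug-treated cKO kidneys. In WT cisplatin replicate 1, cKO cisplatin replicate 1 and cKO cisplatin replicate 4, transcripts of up to 1000 bases stood above those of over 4000 bases by a median of 0.39, 0.30 and 0.31 on the log2 scale, relative to WT untreated. In the other libraries this difference lay between -0.07 and 0.14. Core subunits have longer transcripts (median 1653 bases) than accessory subunits (median 652), so counts are given with and without these libraries.

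Copies of mtDNA sit on chromosome 1 of the nuclear genome, and they bear on which mtDNA genes can be measured. The gene and copy printed here are shown because mt-Nd4l, a complex I subunit, had the lowest log2 change of the mtDNA genes and because only its last bases, in capitals, are missing from the copy Gm10222. mt-Nd4l lies at chrM:9877-10173 on the plus strand and Gm10222 at chr1:24612407-24612700 on the minus strand (GRCm38/mm10, GENCODE M21 transcripts).
mt-Nd4l: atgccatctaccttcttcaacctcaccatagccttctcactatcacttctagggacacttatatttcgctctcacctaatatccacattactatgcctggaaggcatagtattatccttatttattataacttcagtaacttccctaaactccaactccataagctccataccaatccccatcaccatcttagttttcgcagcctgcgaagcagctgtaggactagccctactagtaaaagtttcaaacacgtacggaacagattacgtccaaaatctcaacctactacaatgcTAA
Gm10222: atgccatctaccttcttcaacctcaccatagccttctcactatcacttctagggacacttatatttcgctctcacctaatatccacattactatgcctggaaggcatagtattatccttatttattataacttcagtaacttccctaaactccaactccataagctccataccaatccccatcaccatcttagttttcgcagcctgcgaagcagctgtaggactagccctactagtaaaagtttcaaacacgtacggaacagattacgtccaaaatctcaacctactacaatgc
The 294 aligned bases of this pair held 0 mismatches. mt-Co2, mt-Atp6 and mt-Co3 matched the copies Gm28661, Gm10925 and Gm28437 over 681, 678 and 783 aligned bases with 0 mismatches, and mt-Nd3 differed from Gm28438 at 1 of 345. Of the 50-base words of these 5 genes, 98.0% to 100% occur in another annotated gene. The share was 62.2% for mt-Nd4, 51.1% for mt-Co1, 8.19% for mt-Nd2 and 7.61% for mt-Nd5, and 0% for mt-Nd1, mt-Nd6, mt-Cytb and mt-Atp8.

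The promoter of Sdha, which encodes the flavoprotein of complex II, is shown because Sdha fell in WT and its promoter holds 3 matches to the motif of NRF1, a transcription factor known to activate respiratory chain genes. The 250 bases before the start (chr13:74350241-74350490, minus strand, RefSeq, GRCm38.p6) have the matches in capitals.
Sdha: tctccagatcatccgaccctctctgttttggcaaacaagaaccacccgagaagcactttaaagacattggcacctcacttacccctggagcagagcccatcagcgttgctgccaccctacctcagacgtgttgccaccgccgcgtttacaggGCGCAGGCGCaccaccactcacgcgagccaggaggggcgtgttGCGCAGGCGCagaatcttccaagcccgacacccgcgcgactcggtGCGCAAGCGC
The NRF1 motif was read as GCGC, any 2 bases and GCGC, which is the same on both strands. Over 300 bases, from 250 before to 50 after the start, it was found in 27.6%, 6.22% and 12.1% of the 87 promoters of 81 nuclear members of the set, of all 32851 promoters and of the 13486 promoters of genes kept for testing. In the same order, the YY1 motif (AAGATGGC, either strand) was found in 14.9%, 2.75% and 4.10%. The GABPA motif (CCGGAAGT) was found in 5.75%, 3.89% and 7.38%, and the motif of the estrogen-related receptors (TCAAGGTCA) in 2.30%, 0.423% and 0.289%. Of the 12 nuclear genes that fell in WT, 8 matched the table with 10 promoters, and Ndufs1, Uqcrc2, Atp5a1 and Cox6a2 did not match. The NRF1 motif was found in 1 promoter each of Sdha and Atp5c1 (20% of these promoters, against 27.6% for the nuclear members). The YY1 motif was found in both overlapping promoters of Atp5sl. In the 250 bases before the start, Sdhb, Atp5b, Uqcrfs1 and Cox6b2 each held 0 matches to any of these motifs. Motifs could overlap one another, and a match is a description of letters.

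In untreated WT kidneys the 97 nuclear genes summed to 3.58% to 3.802% of all FPKM and the 13 mtDNA genes to 7.30% to 8.97%. In untreated cKO kidneys the shares were 3.66% to 3.89% and 8.21% to 8.9997%. Per length, the nuclear gene with the highest mean level was Sdha in complex II, Uqcrc1 in complex III, Cox4i1 in complex IV and Atp5b in complex V.

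Without drug, no respiratory chain gene was called between cKO and WT kidneys. At an adjusted p under 0.05 (limma on log2(FPKM + 1), Benjamini-Hochberg adjustment over 15193 genes), 0 of 108 genes of the set were called, where 0% of all genes were. At an unadjusted p under 0.05, 1 was higher and 1 lower, where 44 and 79 of all genes were (0.81% in either direction, against 1.85% of the set). The median log2 difference (cKO minus WT) was 0.04, against -0.02 over all genes. The groups did not overlap for 6 genes that were higher in cKO (2.01% of all genes) and for 2 that were lower (4.25%). Cox7b2 and Cox8c, with means under 0.5 FPKM, were not tested.

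With cisplatin, a group of core subunits fell in WT kidneys while most accessory subunits were not called. Of 108 genes, 15 fell, 5 rose and 88 were not called, with a median log2 change of -0.06. Of all genes 12.1% fell and 22.3% rose (34.4% in either direction), with a median of 0.10, so the share that fell was near the background. Of 19 nuclear core subunits 8 fell and 0 rose (median -0.24), and 17 of the 19 had negative changes. Of 56 nuclear accessory subunits 0 fell and 3 rose (median 0.08). The difference between the 2 classes was not tested. The groups did not overlap for 13 genes that were lower and 5 that were higher, where 14.3% and 24.6% of all genes did not.

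**Figure D1:**
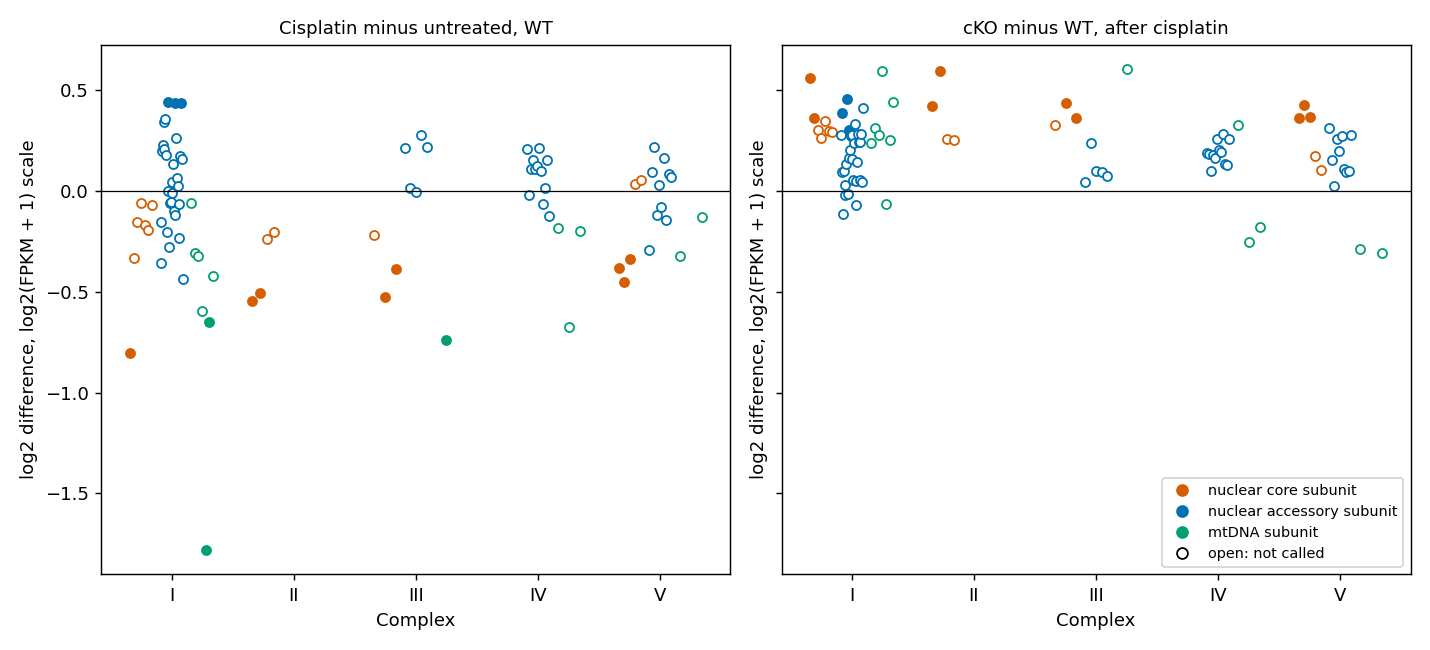
Log2 difference on the log2(FPKM + 1) scale (vertical axis) of each subunit by complex (horizontal axis), for cisplatin minus untreated in WT on the left and for cKO minus WT after cisplatin on the right. Filled points have an adjusted p under 0.05: 8 nuclear core subunits lie below 0 on the left and 9 above 0 on the right. Assembly factors and tissue-restricted isoforms, Cox6b2 among them, are not drawn.

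In complex I, Ndufs1, the large iron-sulfur subunit of the arm that oxidises NADH, stood at 225, 219 and 248.5 FPKM in WT untreated and 140.1, 147, 111 and 132 in WT cisplatin kidneys. In cKO kidneys it stood at 249.2, 235 and 235 without drug and 171, 191, 221 and 200.4 with it. Every WT cisplatin kidney lay below every other kidney, and the cKO cisplatin kidneys lay between the WT cisplatin and the untreated ones, except replicate 3, which was within the WT untreated range. The log2 change in WT was -0.80 ± 0.11 (SE, limma, adjusted p = 1.37e-04). All 7 nuclear core subunits of complex I had negative changes in WT, from -0.80 to -0.06, and 1 was called.

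The 3 accessory subunits that rose in WT were all in complex I. Ndufb6, of the membrane arm, stood at 97.4, 98.2 and 102 FPKM in WT untreated and 169.5, 123, 115 and 138 in WT cisplatin kidneys, without overlap (0.44 ± 0.12, adjusted p = 0.0132). Ndufa7 stood at 154, 147 and 166 untreated and 287, 191, 192 and 191 with cisplatin, also without overlap (0.44 ± 0.14, adjusted p = 0.0272). Ndufs5 stood at 139, 82.8 and 97.1 untreated and 149, 145, 129.96 and 141 with cisplatin, which overlap (0.44 ± 0.15, adjusted p = 0.0405). WT cisplatin replicate 1 was the highest of its group for each of them. Of the 50-base words of Ndufb6 and Ndufs5, 34.1% and 41.2% occur in another annotated gene, so their counts are uncertain. For Ndufs5 that gene is BC002163, at 3.58, 109.8 and 133.3 FPKM in WT untreated and 195.9, 3.84, 1.44 and 1.88 in WT cisplatin kidneys. WT untreated replicates 2 and 3, the lowest for Ndufs5, had high BC002163, and so had WT cisplatin replicate 1, the highest for Ndufs5. The part of BC002163 in the Ndufs5 call, lost under 15 of 25 alternatives, was not tested. In cKO kidneys Ndufb6 stood at 112, 109 and 114 without and 146, 114, 123 and 133 with cisplatin, Ndufa7 at 145, 158 and 177 untreated and 237, 191, 195 and 219 with cisplatin, and Ndufs5 at 135, 139 and 158 untreated and 192, 144, 165 and 192 with cisplatin.

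Complex II oxidises succinate and belongs to the tricarboxylic acid cycle as well as to the chain. All 4 of its subunits had negative changes in WT, and 2 were called. Sdha stood at 1188, 1163 and 1214 FPKM in WT untreated and 859, 931, 721 and 763 in WT cisplatin kidneys. In cKO kidneys it stood at 1231, 1228 and 1214 without drug and 974, 1064, 1237 and 1105 with it. The WT cisplatin kidneys lay below every other kidney (-0.54 ± 0.11, adjusted p = 0.00242). Sdhb, the iron-sulfur subunit, stood at 264, 281 and 306 FPKM in WT untreated and 262, 207, 168 and 173 in WT cisplatin kidneys. These groups did not overlap, although replicate 1 was close to the lowest untreated kidney (-0.51 ± 0.16, adjusted p = 0.0230). The membrane anchors Sdhc and Sdhd changed by -0.24 ± 0.12 and -0.20 ± 0.11 and were not called. Summed over its 4 subunits, complex II read 1947 ± 63.4 FPKM (SD, n = 3) in WT untreated and 1430.4 ± 169 (SD, n = 4) in WT cisplatin kidneys, a ratio of 0.735. In cKO kidneys the ratio was 0.929.

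Complex III passes electrons from quinol to cytochrome c. Uqcrc2, a core protein, stood at 432, 423 and 451 FPKM in WT untreated and 319, 343, 268 and 285 in WT cisplatin kidneys, and at 370.3, 392, 438 and 439.7 in cKO cisplatin kidneys. The WT cisplatin kidneys lay below every other kidney (-0.53 ± 0.10, adjusted p = 0.00135). Of its 50-base words 24.8% occur in the overlapping gene Pdzd9. Uqcrfs1, the Rieske iron-sulfur protein, stood at 325, 333 and 335 in WT untreated and 316, 252, 212 and 242 in WT cisplatin kidneys, without overlap (-0.39 ± 0.13, adjusted p = 0.0294). Uqcrc1, the other core protein, stood at 547, 561 and 585 untreated and 608, 468, 446 and 436 with cisplatin and was not called (-0.22 ± 0.13, adjusted p = 0.213). The 5 accessory subunits changed by -0.0032 to 0.28, none called. Cyc1, the cytochrome c1 of complex III, is not matched by the symbols and was not counted as core. It changed by -0.17 ± 0.12 in WT (adjusted p = 0.318). After cisplatin it differed by 0.31 ± 0.11 between cKO and WT (adjusted p = 0.0608), so it was called in neither.

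Complex IV reduces oxygen. None of its 12 widely used nuclear subunits was called in WT, and their changes ran from -0.12 to 0.21. Cox4i1 stood at 795, 809 and 846 FPKM in WT untreated and 1620.5, 844, 741 and 785 in WT cisplatin kidneys, and at 784, 836 and 938 untreated and 1205, 973, 975 and 1183 with cisplatin in cKO kidneys. WT cisplatin replicate 1 stood apart and the other 3 lay around the untreated level. The same library was the highest of its group, and above the WT untreated kidneys, for Cox6a1, Cox6b1, Cox7a2, Cox7a2l, Cox7b, Cox8a and Ndufa4. Cox6a1 stood at 1438, 825, 779 and 818 FPKM in WT cisplatin kidneys, against 821 to 852 in WT untreated ones, and Cox8a at 1487, 832, 729 and 872 against 804 to 894. Cox7a2 stood at 648, 375, 329.7 and 371 against 336 to 381, Cox7b at 415, 317, 261 and 289 against 299 to 372, and Ndufa4 at 753, 480.5, 442 and 468 against 545 to 615. Cox7a2l, which takes part in joining complexes III and IV, stood at 141, 90.9, 99.7 and 95.2 against 92.4 to 103. None of these 8 genes was called in any comparison.

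Among the tissue-restricted isoforms of complex IV, one rose and one fell in WT. Cox6b2, the testis counterpart of Cox6b1, stood at 6.99, 7.92 and 6.74 FPKM in WT untreated and 79.9, 98.8, 52.1 and 102 in WT cisplatin kidneys. In cKO kidneys it stood at 6.93, 8.60 and 10.2 without drug and 45.6, 54.7, 41.2 and 9.16 with it. All WT cisplatin kidneys and cKO cisplatin replicates 1 to 3 lay above every untreated kidney, and cKO cisplatin replicate 4 lay within the untreated range. The log2 change in WT was 3.31 ± 0.45 (adjusted p = 1.41e-04), and none of its 50-base words occurs in another annotated gene. Cox6b1 stood at 596, 578 and 609 FPKM in WT untreated and 973, 544, 549 and 583 in WT cisplatin kidneys, above Cox6b2 in each.

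Cox6a2, the heart and muscle isoform, stood at 2.02, 3.13 and 3.31 FPKM in WT untreated and 0.534, 0.612, 0.732 and 0.114 in WT cisplatin kidneys, without overlap (-1.35 ± 0.37, adjusted p = 0.0116). Cox7a1, a further muscle isoform, stood at 13.1, 14.1 and 14.3 untreated and 14.7, 12.8, 7.14 and 4.67 with cisplatin and was not called (-0.57 ± 0.28, adjusted p = 0.136). At such low levels the added 1 FPKM understates a change. Ndufa4l2, which is known to respond to hypoxia, stood at 4.08, 4.03 and 4.30 in WT untreated and 4.71, 4.69, 9.69 and 5.48 in WT cisplatin kidneys (0.42 ± 0.20, adjusted p = 0.119). Cox4i2 and Cox8b read at most 1.27 and 2.84 FPKM in any library and Cox7b2 at most 0.0452, and Cox8c was listed at 0 in every library.

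In the catalytic head of complex V, 3 of 5 subunits fell in WT. Atp5b, the catalytic beta subunit, stood at 3691, 3676 and 3916 FPKM in WT untreated and 2952, 2811, 2562 and 2688 in WT cisplatin kidneys, and at 3980.1, 3796 and 4025 untreated and 3658, 3468, 3748 and 3922 with cisplatin in cKO kidneys. The WT cisplatin kidneys lay below every other kidney (-0.45 ± 0.12, adjusted p = 0.00951). Atp5a1, the alpha subunit, stood at 1490.3, 1456 and 1527 in WT untreated and 1267, 1221, 999.8 and 1108 in WT cisplatin kidneys, again below every other kidney (-0.38 ± 0.11, adjusted p = 0.0145). Atp5c1, the gamma subunit of the rotor shaft, stood at 448, 430.1 and 474 untreated and 441, 352, 309 and 337 with cisplatin, with replicate 1 inside the untreated range (-0.34 ± 0.12, adjusted p = 0.0422). The call of Atp5c1 was lost under 14 of 25 alternatives. The 10 other nuclear subunits changed by -0.29 to 0.22, none called.

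**Figure D2:**
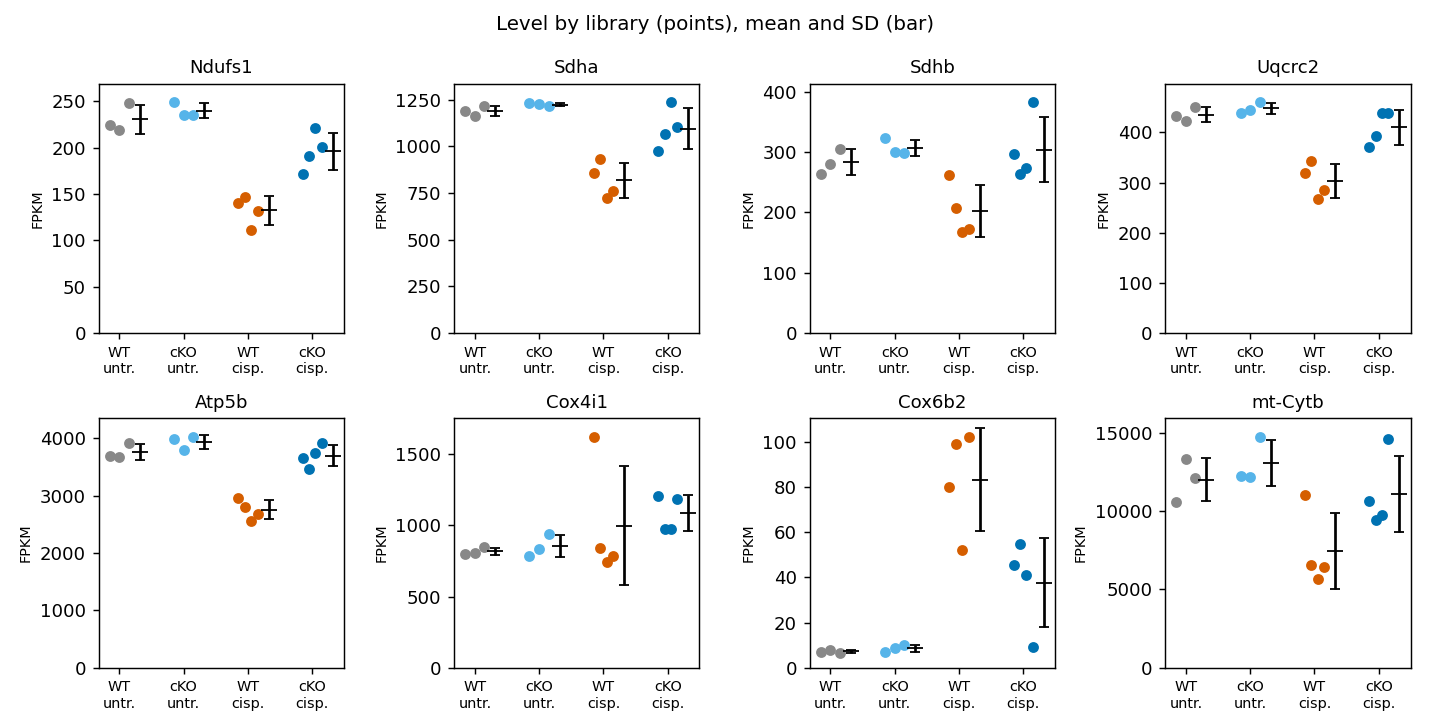
FPKM (vertical axis) of 8 respiratory chain genes in each library of the 4 groups, with the group mean and SD as a bar. The WT cisplatin kidneys lie lowest for Ndufs1, Sdha, Uqcrc2 and Atp5b, WT cisplatin replicate 1 stands apart for Cox4i1, and cKO cisplatin replicate 4 lies with the untreated kidneys for Cox6b2.

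Of the 14 assembly or other factors, 3 fell and 1 rose in WT, where 12.1% of all genes fell and 22.3% rose. Atp5sl, also known as the complex I assembly protein Dmac2, changed by -0.72 ± 0.14 (adjusted p = 0.00192), Ndufaf1, a complex I assembly factor, by -0.39 ± 0.12 (adjusted p = 0.0274) and Atp5s by -0.30 ± 0.10 (adjusted p = 0.0280). Sdhaf2, which helps to attach the flavin to Sdha, stood at 9.90, 8.66 and 10.4 FPKM in WT untreated and 12.6, 10.7, 13.2 and 12.4 in WT cisplatin kidneys (0.31 ± 0.11, adjusted p = 0.0446). The calls of Ndufaf1, Atp5s and Sdhaf2 were lost under 7, 6 and 16 of 25 alternatives.

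All 13 mtDNA genes had negative changes with cisplatin in WT, from -1.78 to -0.06 (median -0.32), and 3 were called. mt-Cytb, the cytochrome b of complex III, stood at 10575, 13318 and 12143 FPKM in WT untreated and 11018, 6562, 5669 and 6454 in WT cisplatin kidneys. Replicate 1 overlapped the untreated kidneys and the others lay below them (-0.74 ± 0.25, adjusted p = 0.0350). mt-Nd5, a proton-pumping subunit of complex I, stood at 3699, 5408 and 3383 untreated and 2595.6, 2939.7, 2069 and 2891 with cisplatin, without overlap (-0.65 ± 0.20, adjusted p = 0.0234). mt-Nd4l stood at 134, 127 and 55.7 untreated and 19.5, 40.0, 22.9 and 33.7 with cisplatin, also without overlap (-1.78 ± 0.30, adjusted p = 5.50e-04). Its copy Gm10222 changed by -1.10 ± 0.23 (adjusted p = 0.00232), and how reads were divided between gene and copy is not given in the sources used here, so both values are uncertain.

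The other complex I genes of mtDNA were not called. mt-Nd1 stood at 9092, 10573 and 9616 FPKM in WT untreated and 14281, 8586, 6884 and 9082 in WT cisplatin kidneys. mt-Nd2 stood at 6234, 6928 and 6403 untreated and 7255, 5032, 4131 and 5104 with cisplatin. mt-Nd4 stood at 4009, 5129.8 and 4296 untreated and 4687, 2581, 2394 and 2625 with cisplatin. For these, WT cisplatin replicate 1 was the highest of its group and lay within or above the untreated range. The same held for mt-Nd6, read from the opposite strand of mtDNA, at 2715, 3920.3 and 2592 untreated and 3055, 2156, 1828 and 2156 with cisplatin. mt-Nd3 stood at 78.4, 82.5 and 83.6 untreated and 106, 64.8, 49.0 and 52.9 with cisplatin.

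The catalytic subunits of complex IV overlapped between the WT groups. mt-Co1 stood at 13888, 16810.0 and 14080.0 FPKM in WT untreated and 17298, 12643, 10636 and 12714 in WT cisplatin kidneys. mt-Co2, which takes electrons from cytochrome c, stood at 504, 213 and 325 untreated and 206, 343, 131 and 188 with cisplatin, and mt-Co3 at 195, 118 and 157 untreated and 204, 124, 115 and 109.7 with cisplatin. The complex V genes overlapped too, with mt-Atp6, part of the proton channel, at 139.8, 167 and 151 untreated and 119, 202, 87.1 and 103 with cisplatin and mt-Atp8 at 1.13, 1.35 and 1.59 untreated and 1.34, 1.92, 0.542 and 1.04 with cisplatin. mt-Co2, mt-Co3, mt-Atp6, mt-Nd3 and mt-Nd4l, the 5 genes with near-complete copies, and mt-Atp8 read far lower per length than the other mtDNA mRNAs in every group.

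In cKO kidneys none of the mtDNA genes was called with cisplatin. mt-Cytb stood at 12224, 12199 and 14742 FPKM without drug and 10619, 9417, 9746 and 14625 with it, and mt-Nd1 at 10214, 9898 and 11944 untreated and 12022, 10217, 10589 and 11436 with cisplatin. mt-Nd4 stood at 4528, 4674 and 5603 untreated and 4656, 3758, 3948 and 5723 with cisplatin, and mt-Nd6 at 3382, 3100.3 and 3273 untreated and 3019, 2716, 2866 and 3784 with cisplatin. mt-Co1 stood at 15858, 15549 and 17745 untreated and 16524, 16094, 15769 and 17591 with cisplatin. For these 5 genes the treatments overlapped. mt-Nd2 was lower in every drug-treated cKO kidney, at 7102, 7068 and 7450.2 untreated and 6689, 5989, 6992 and 6577 with cisplatin. mt-Nd5 was lower in 3 of 4, at 4740.3, 4252 and 3335 untreated and 2569, 3246, 3443 and 3206 with cisplatin.

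Of the genes with copies, mt-Nd4l stood at 57.7, 58.4 and 52.4 FPKM in cKO untreated and 21.5, 25.1, 36.1 and 25.8 in cKO cisplatin kidneys. mt-Co2 stood at 267, 231 and 315 untreated and 156, 155, 206 and 173 with cisplatin, and mt-Atp6 at 135, 244 and 187 untreated and 85.9, 75.3, 123 and 123 with cisplatin. In these 3 every drug-treated kidney lay below every untreated one. mt-Nd3, at 72.04, 70.5 and 95.4 untreated and 86.4, 70.6, 79.1 and 80.6 with cisplatin, mt-Co3, at 124, 146 and 371 untreated and 99.8, 90.5, 141 and 153 with cisplatin, and mt-Atp8, at 0.710, 0.588 and 1.03 untreated and 0.802, 0.970, 0.413 and 0.823 with cisplatin, overlapped.

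Along mtDNA, log2 changes in WT tended to be lower with distance in 6 mRNAs of the heavy-strand transcript outside the near-complete copies. Of these 6, mt-Co1 was out of order. mt-Atp8, between mt-Co1 and mt-Nd4, also lies outside these copies but was left out, and it held an estimated 4 to 25 reads per library. Its log2 change in WT, -0.13, lay above those of mt-Nd2 and mt-Co1, so it was out of order as well. From the 12S rRNA gene mt-Rnr1 onwards, the log2 change in WT was -0.06 for mt-Nd1, -0.31 for mt-Nd2, -0.18 for mt-Co1, -0.59 for mt-Nd4, -0.65 for mt-Nd5 and -0.74 for mt-Cytb. Spearman's rho of change with position was -0.94 in WT and -0.89 in cKO, over 6 genes that share their libraries, a description without a test. The mean log2 level of mt-Nd4, mt-Nd5 and mt-Cytb minus that of mt-Nd1, mt-Nd2 and mt-Co1 was -0.78, -0.58 and -0.77 in WT untreated and -1.25, -1.15, -1.14 and -1.20 in WT cisplatin kidneys. In cKO kidneys it was -0.71, -0.72 and -0.84 without drug and -1.13, -1.03, -1.05 and -0.77 with it. All cisplatin kidneys but cKO replicate 4 lay below every untreated kidney. These sets of genes were chosen after their values were seen, and no test was run. The rRNAs at the head of the transcript rose in WT, mt-Rnr1 by 1.83 ± 0.29 (adjusted p = 3.53e-04) and mt-Rnr2 by 1.31 ± 0.26 (adjusted p = 0.00202). In cKO they changed by 1.14 ± 0.29 and 1.00 ± 0.26 and were not called. In WT, mt-Rnr1 stood at 183 to 361.5 FPKM untreated and 722.6 to 1536 with cisplatin. For mt-Rnr2 the WT ranges were 215 to 338.5 and 526 to 1072. Both rRNAs read far lower per length than mt-Nd1 in every library. What part library preparation had in their levels was not tested.

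**Figure D3:**
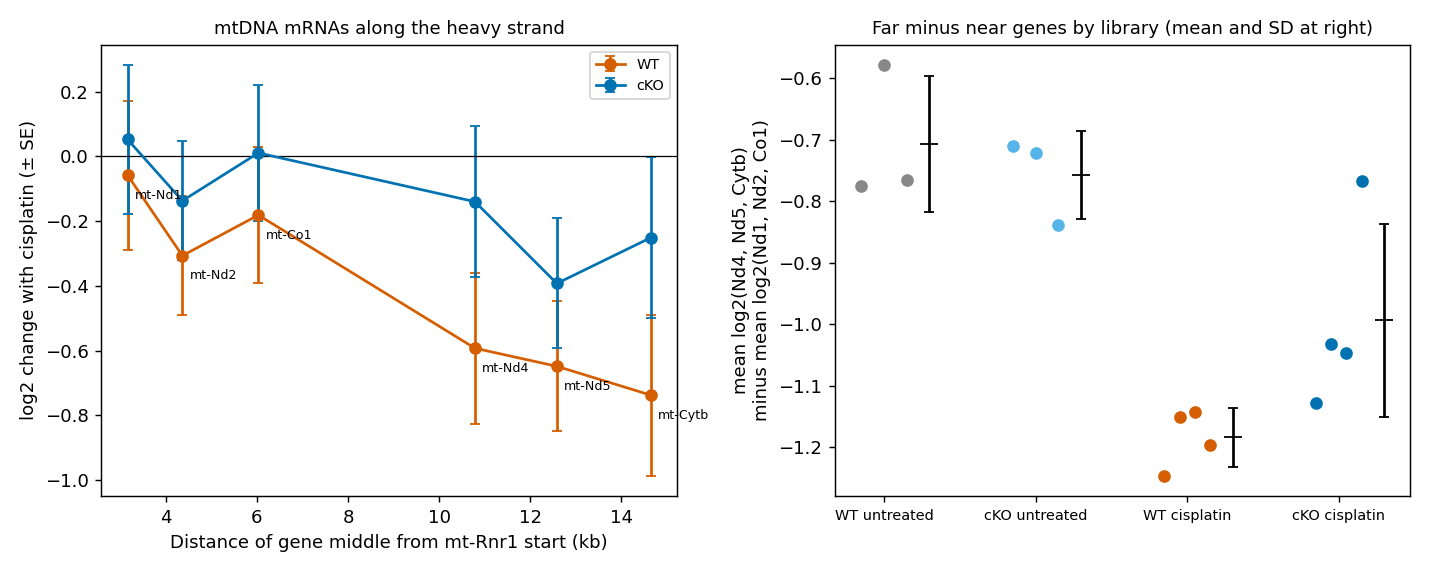
Left, log2 change with cisplatin (± SE) of 6 mtDNA mRNAs against the distance in kb of the middle of the gene from the start of mt-Rnr1, for WT and cKO. Right, the mean log2 level of the 3 far genes minus that of the 3 near genes in each library, with the group mean and SD. The WT cisplatin kidneys lie between -1.25 and -1.14, below every untreated kidney.

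Summed over the 13 mtDNA genes, WT cisplatin replicates 1 to 4 gave 7.91%, 5.96%, 4.82% and 5.96% of all FPKM, against 7.30% to 8.97% in WT untreated and 7.40% to 8.38% in cKO cisplatin kidneys. The 97 nuclear genes gave 4.31%, 3.22%, 2.88% and 3.15%, against 3.58% to 3.802% and 3.64% to 4.14%. Replicate 1 lay above the WT untreated range for the nuclear sum and the other 3 below it. In whole kidney, fewer cells of a type and less RNA per cell cannot be told apart.

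**Figure D4:**
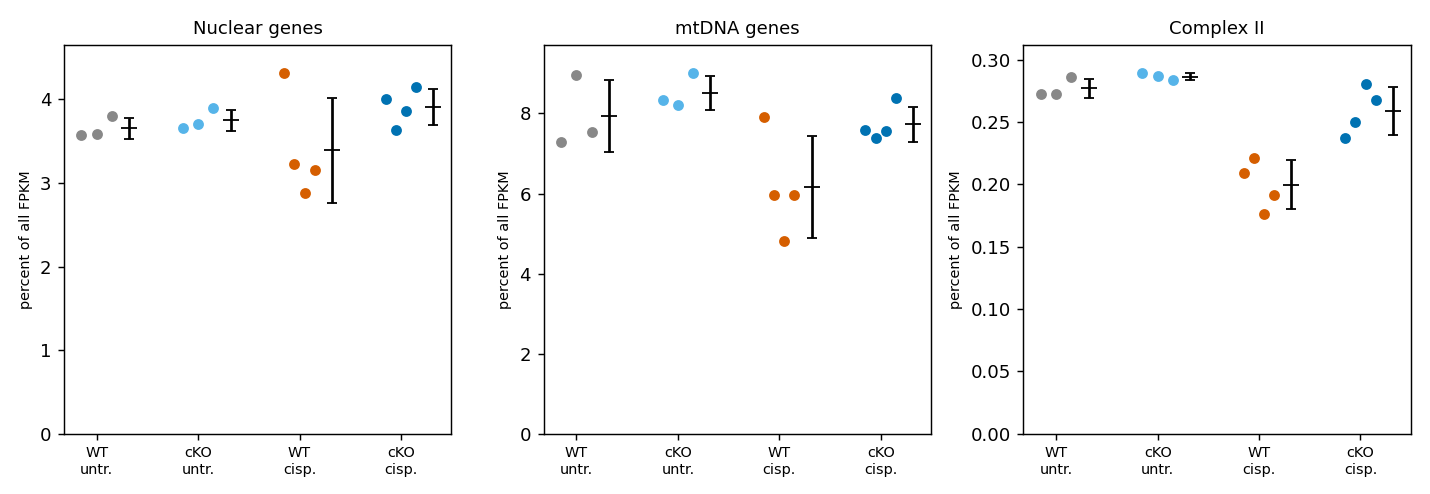
Summed FPKM of the 97 nuclear genes, the 13 mtDNA genes and the 4 complex II subunits, as percent of all FPKM, in each library of the 4 groups, with the group mean and SD as a bar. For the nuclear genes, WT cisplatin replicate 1 lies at 4.31%, above the other WT cisplatin kidneys.

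Leaving out WT cisplatin replicate 1 raised the number of genes that fell in WT to 39, with 3 that rose, where 13.2% of all genes fell and 29.3% rose. The median was -0.24, against 0.15 over all genes. Of the core subunits 15 of 19 fell, of the accessory subunits 10 of 56, and of the mtDNA genes 7 of 13. Sdhc (-0.34 ± 0.10, adjusted p = 0.0150), Sdhd (-0.28 ± 0.10, adjusted p = 0.0336) and mt-Nd4 (-0.81 ± 0.17, adjusted p = 0.00239) were then among those called lower, and Ndufs5 and Sdhaf2 were not called. Without all 3 libraries that stand apart, 47 fell and 4 rose (14.6% and 32.5% of all genes). With each library centred on the median of genes of like transcript length, 26 fell and 3 rose (17.9% and 18.9% of all genes), among them 12 core and 4 accessory subunits that fell. Across genes, which are not independent replicates, Spearman's rho of the change in WT with transcript length was -0.46 over 95 nuclear genes of the set and -0.07 over 15060 others.

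**Figure D5:**
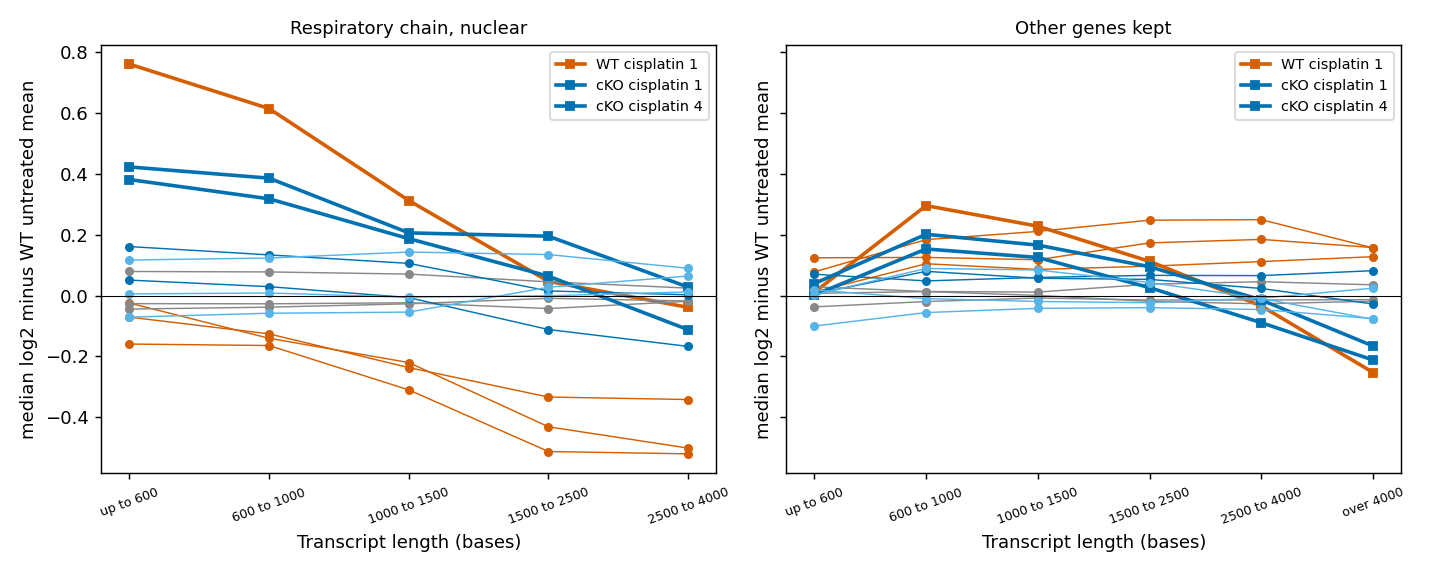
Median log2 level minus the WT untreated mean (vertical axis) by transcript length in bases (horizontal axis), 1 line per library, for nuclear respiratory chain genes on the left and other genes on the right. Thick lines with squares mark WT cisplatin replicate 1 and cKO cisplatin replicates 1 and 4, and in WT cisplatin replicate 1 the nuclear genes of up to 600 bases lie at 0.76 and those of over 2500 at -0.04.

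In cKO kidneys, cisplatin against untreated called 0 of 108 genes of the set with limma, where 0.0197% of all genes were called, all of them lower. At an unadjusted p under 0.05, 3 were higher and 4 lower (6.48% of the set), where 1071 and 683 of all genes were (11.5%). Without cKO cisplatin replicate 4, 1 gene was called higher and 0 lower. The share of all genes called without this library is not given here, so these counts are not read as a result about the set. The median log2 change was 0.12, against 0.02 over all genes, with -0.01 for core and 0.23 for accessory subunits. The groups did not overlap for 10 genes that were higher (7.17% of all genes) and 5 that were lower (5.03%), and the 10 were all accessory subunits. Ndufs1 changed by -0.30 ± 0.11 and was not called (adjusted p = 0.288).

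The test of whether the cKO response to cisplatin differed from the WT response called 0 of 108 genes with limma, where 1.41% of all genes had a higher and 2.65% a lower response in cKO (4.06% in either direction). At an unadjusted p under 0.05, 6 were higher and 1 lower (6.48% of the set), where 1167 and 2084 of all genes were (21.4%). Without cKO cisplatin replicate 4, 0 were called, again with no share over all genes to set beside it. The median difference was 0.18, against -0.08 over all genes, and it was positive for 19 of 19 core subunits. Ndufs1 had the smallest adjusted p (0.51 ± 0.15, adjusted p = 0.0820). Without WT cisplatin replicate 1, 11 genes had a called difference, all positive, where 4.62% of all genes had a positive one. Among them were Ndufa6, Ndufa10, Ndufb5, Ndufb10, Ndufb11, Ndufs1, Ndufs8 and Ndufv3 of complex I, Sdhb and Atp5c1.

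After cisplatin, cKO kidneys had more RNA of core subunits than WT kidneys. The WT cisplatin libraries enter this comparison and that of cisplatin in WT, so the 2 are not independent. Of 108 genes, 14 were higher and 1 lower in cKO, with a median log2 difference of 0.20. Of all genes 8.77% were higher and 18.1% lower (26.9% in either direction), with a median of -0.11. Core subunits made 9 of the 14 (9 of 19, median 0.35) and accessory subunits 3 (3 of 56, median 0.17). The groups did not overlap for 7 genes that were higher (7.33% of all genes) and 0 that were lower (13.8%).

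The core subunits that were higher included Ndufs1, Sdha, Sdhb, Uqcrc2, Uqcrfs1, Atp5a1, Atp5b and Atp5c1. Sdhb stood at 297, 263, 274 and 383 FPKM in cKO cisplatin kidneys, each above every WT cisplatin kidney (0.59 ± 0.14, adjusted p = 0.00958), and at 323, 299.6 and 299 in cKO untreated ones. Ndufs1 differed by 0.56 ± 0.10 (adjusted p = 0.00169), Uqcrc2 by 0.44 ± 0.09 (adjusted p = 0.00458), Sdha by 0.42 ± 0.10 (adjusted p = 0.0105) and Atp5b by 0.43 ± 0.11 (adjusted p = 0.0120). The 19 core subunits all had positive differences, from 0.11 to 0.59.

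The accessory subunits that were higher in cKO were Ndufa6, Ndufa9 and Ndufa10, all of complex I, by 0.45 ± 0.16, 0.30 ± 0.11 and 0.39 ± 0.12. These calls were lost under 16, 15 and 8 of 25 alternatives. Cox7a1 stood at 14.5, 15.1, 18.9 and 15.8 FPKM in cKO cisplatin kidneys (0.76 ± 0.26, adjusted p = 0.0453), and Atp5sl was also higher (0.54 ± 0.13, adjusted p = 0.0105). Cox6b2 was the gene that was lower (-1.33 ± 0.42, adjusted p = 0.0319). None of the mtDNA genes was called, with mt-Nd4 at 0.59 ± 0.22 (adjusted p = 0.0569) and mt-Cytb at 0.61 ± 0.23 (adjusted p = 0.0666). Without WT cisplatin replicate 1, 75 genes were higher and 2 lower (11.7% and 29.1% of all genes), among them 18 core subunits, 44 accessory subunits and 7 mtDNA genes. Without all 3 libraries that stand apart, 41 were higher and 0 lower (9.20% and 20.2% of all genes). Without cKO cisplatin replicate 4 alone, 6 were higher and 1 lower, and the share over all genes for that setting is not given here.

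Other mitochondrial genes moved to different degrees in WT. Over all genes, 12.1% fell and 22.3% rose in WT, and 8.77% were higher in cKO after cisplatin. Of 20 tricarboxylic acid cycle genes outside complex II, 14 fell and 1 rose (median -0.41), and 13 were higher in cKO after cisplatin. Idh2, the mitochondrial isocitrate dehydrogenase that uses NADP, changed by -0.99 ± 0.15 (adjusted p = 2.41e-04) and Pcx, pyruvate carboxylase, by -1.07 ± 0.15 (adjusted p = 1.75e-04). Of 14 electron carrier and coenzyme Q genes, 4 fell and 0 rose: Coq9 (-0.73 ± 0.10), Pdss1 (-0.62 ± 0.10), Coq8a (-1.29 ± 0.24) and Cycs, cytochrome c (-0.38 ± 0.13). Of 11 genes for other entry points of electrons, 3 fell (Suox, Aifm1 and Etfa) and 1 rose (Aifm2). Of 40 assembly factors not matched by symbol, 7 fell, Acad9 of complex I among them (-0.83 ± 0.10), and 3 rose.

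The lists that follow are to be read beside the 12.1% of all genes that fell and the 22.3% that rose in WT. Of 30 genes for transcription, replication and RNA handling of mtDNA, 2 fell and 0 rose in WT. These were Fastkd1 (-0.47 ± 0.10) and Lrpprc, which stabilises mtDNA mRNAs (-0.37 ± 0.10). Tfam, which packages and transcribes mtDNA, stood at 39.2, 38.5 and 41.2 FPKM in WT untreated and 35.5, 36.4, 34.0 and 33.9 in WT cisplatin kidneys and was not called (adjusted p = 0.103). Of 22 regulators of mitochondrial biogenesis, 7 fell and 3 rose. Sirt3, a mitochondrial deacetylase, changed by -1.19 ± 0.13 and the estrogen-related receptor Esrrg by -0.85 ± 0.14, whereas Pprc1 and Gabpb1 rose by 1.20 ± 0.23 and 0.58 ± 0.12. Ppargc1a, the coactivator PGC-1 alpha, stood at 24.6, 23.5 and 21.7 FPKM in WT untreated and 12.4, 14.6, 11.7 and 13.7 in WT cisplatin kidneys, without overlap (-0.79 ± 0.18, adjusted p = 0.00394). Of 21 outer membrane and matrix genes, 4 fell and 2 rose, with Opa1, which shapes the inner membrane, at -0.58 ± 0.11.

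Cell markers moved in the same libraries. Over all genes, 12.1% fell and 22.3% rose in WT, and 8.77% were higher in cKO after cisplatin. Of 14 proximal tubule markers, 11 fell and 0 rose in WT, and 11 were higher in cKO after cisplatin. Their summed level ran from 13270.0 to 14404 FPKM in WT untreated, 4065 to 7113 in WT cisplatin and 10921 to 14093 in cKO cisplatin kidneys. Of 12 markers of the thick ascending limb and distal tubule, 7 fell and 1 rose in WT, with sums of 3742 to 3922, 2149 to 3240.0 and 2974 to 4109.5. Of 10 macrophage markers, 6 rose and 0 fell, with sums of 78.6 to 92.5, 119 to 408 and 69.7 to 92.9. All 8 tubular injury genes rose, with sums of 521 to 574 in WT untreated, 449.5 to 656 in cKO untreated, 10515 to 17880.0 in WT cisplatin and 3879.8, 1957, 2190.3 and 587 in cKO cisplatin kidneys. All 6 red blood cell genes fell, with sums of 629 to 932 in WT untreated, 538 to 1134 in cKO untreated, 0.452 to 1.06 in WT cisplatin and 2.37, 1.19, 1.33 and 773 in cKO cisplatin kidneys. For both lists cKO cisplatin replicate 4 lay within the range of the cKO untreated kidneys and the other cKO cisplatin kidneys did not. Low red blood cell RNA thus went with the drug in every other library. In the comparisons of cisplatin with untreated kidneys, the drug and the blood content of the tissue cannot be told apart. In WT, 2 of 10 collecting duct markers rose and 1 fell, 2 of 9 fibroblast and pericyte markers rose, 1 of 8 endothelial and 2 of 7 lymphocyte markers fell, and 0 of 7 podocyte and 0 of 6 fat markers were called. Of 10 skeletal and heart muscle markers only Pvalb, which distal tubules also express, was kept, and Ckm, the muscle creatine kinase, read at most 0.0398 FPKM in any library. The part of these cell types in the respiratory chain results was not tested.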

How the data were processed

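The deposited table holds FPKM per gene and library, which the authors made from total kidney RNA (Trizol, Illumina TruSeq, per the labels' protocols) after alignment with HISAT2 2.0.5 (genome build: mm10), per the submitters' processing notes. The counting tool, annotation and strand setting are not given in the sources used here. All 14 columns matched a sample by its title, 0 columns had no sample, 1 line of the table was empty, and 0 pairs of libraries were identical. Replicates were numbered in record order.

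Assigned reads per library (36.7 to 77.0 M) were estimated from the steps between low FPKM values. With GENCODE M21 lengths, whole read numbers came out for 43.2% to 50.8% of the detected genes with under 1000 reads. Reads were therefore not recovered for all genes, and no count test was run. A gene was kept when its 14-library mean reached 0.5 FPKM (15193 kept, 34391 removed). log2(FPKM + 1) was fitted in 1 limma model over the 4 groups with a trend in the variance (limma 3.58.1, R 4.3.3), adjusted by Benjamini-Hochberg over all genes kept, and called at 0.05. The procedure was tested on simulated data. Fold changes on this scale understate the change of low genes.

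Sequences shared between genes were counted as 50-base words of the transcripts and aligned with blastn 2.17.0; tables were handled with Python 3.11.15. Values in every library are given for the mtDNA genes, for the highest and smallest-p genes of each complex, for genes called against the majority and for isoform pairs. Not every gene that the rule names is reported here. The members, the marker and pathway lists and this rule were chosen with earlier results of these data known. Alternatives covered scaling, the pseudocount, the filter, the groups in the model and each library left out in turn.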

Additional observations from a re-analysis of the deposited data

Results flagged for a closer look

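In groups of 4 the highest or lowest library was compared with its neighbours by Dixon's gap test at the 95% level, which by chance marks about 1 in 20 independent groups. The groups tested here share their libraries, and many of their genes were chosen by p, so the count cannot be set against that rate. Of 109 groups tested over the respiratory chain genes and sums, 18 had a library that stood apart, and each was the highest of the WT cisplatin group.

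WT cisplatin replicate 1 was that library for 15 of them. For complex IV genes it read 1620.5 FPKM for Cox4i1, 1438 for Cox6a1, 973.2 for Cox6b1, 648.3 for Cox7a2 and 753.2 for Ndufa4. For complex I genes it read 288.9 FPKM for Ndufa10, 287.1 for Ndufa7 and 27.53 for Ndufaf1. For mtDNA genes it read 203.6 FPKM for mt-Co3, 11018 for mt-Cytb and 4687 for mt-Nd4. Its summed FPKM was 33177 over the nuclear genes, 8171 over nuclear complex I subunits, 3955.5 over nuclear complex III subunits and 9606.5 over nuclear complex IV subunits. In the same library short transcripts stood 0.39 above long ones on the log2 scale, and its podocyte and endothelial marker sums were the lowest of all libraries. Whether the length pattern, the marker sums and these values have one source was not tested.

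WT cisplatin replicate 2 was the highest for Cox7b2 (0.04516 FPKM) and Cox8b (1.564 FPKM), both near the lower limit of measurement. WT cisplatin replicate 3 was the highest for Ndufa4l2 (9.695 FPKM).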

How the results depend on the processing

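Of the genes of the set with an adjusted p under 0.05 in WT, Ndufs1, Uqcrc2, Sdha, Atp5sl, Cox6a2, Cox6b2 and mt-Nd4l were called under all 25 alternatives, and Ndufs1, Uqcrc2 and Atp5sl were so in cKO against WT after cisplatin. Over the comparisons and alternatives of 49 genes, 4316 results kept their direction and side of the threshold, 136 gained and 192 lost the call, and 1 reversed: Atp5b in WT stood at 0.0042 (adjusted p = 0.982) under quantile normalization. Counts moved more. Of genes called lower in WT (15), there were 37 with array weights, 24 with the nuclear sum set equal, 26 with length bins centred, 26 under quantile normalization, 9 with no filter, 6 when only the compared groups were fitted and 47 without the 3 libraries. Of genes called higher in WT (5), there were 3, 3 and 3 with the nuclear sum set equal, length bins centred and quantile normalization, 2 with no filter, 1 with median-of-ratios scaling and 1 with only the compared groups. In cKO (0), 4 were higher with array weights and 1 without the 3 libraries. After cisplatin (14 higher), there were 53 with array weights, 27 with length bins centred, 25 under quantile normalization, 6 with no filter, 3 with only the compared groups and 41 without the 3 libraries, and the 1 lower gene became 0 with no filter, with only the compared groups and without the 3 libraries. The difference of responses (0) had 20 higher and 1 lower with array weights, 1 higher under quantile normalization and 2 without the 3 libraries. The cause of these moves was not tested. Calls over all genes can also move with the setting. Their shares are not given for most alternatives, nor for most of the single libraries left out below. The counts are therefore not read as results about the respiratory chain.

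With each library left out in turn, 8 to 39 genes fell and 2 to 5 rose in WT, 0 to 1 rose and 0 fell in cKO, 6 to 75 were higher and 0 to 2 lower after cisplatin, and 0 to 11 had a higher response in cKO. The WT count moved by over 1.5 times without WT cisplatin replicate 1 (39), 3 (9) or 4 (9) and without WT untreated replicate 2 (9) or 3 (8). The count after cisplatin moved so without WT cisplatin replicate 1 (75), 3 (7) or 4 (7) and without cKO cisplatin replicate 1 (8), 3 (8) or 4 (6). The summed complex II ratio in WT stayed between 0.704 and 0.766. Length centring and the removal of the 3 libraries were chosen after seeing the data. No paired analysis was possible because the labels carry no replicate numbers.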
